A study of Mus musculus with 6 samples.

Results

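The genes described here are the 8 of the Gdnf and Ret axis of kidney branching: the ligand genes Gdnf and Nrtn, the receptor genes Ret, Gfra1 and Gfra2, the Ets factor genes Etv4 and Etv5, and the receptor kinase gene Ros1. They were taken by name from a table of 22667 mouse genes, of which 21553 hold values, and all 8 reached the mean of 1 cRPKM that 12315 genes passed for testing. The cRPKM is a corrected form of RPKM, which divides reads by transcript length and by library size, so levels of different genes can be set side by side. Kidneys were taken at E13.5 from 3 Fat4-/- embryos and 3 Fat4+/+ embryos of 1 pregnant female, on a strain labelled C57BL6/6 and backcrossed 6 times, and each library pooled the left and right kidney of 1 embryo after most ureter tissue was cut away. The labels name no other allele or treatment in either group, and the sources used here do not give the part of Fat4 that the mutation changes. Fat4, an atypical cadherin gene, was at 15.69 to 16.83 cRPKM in Fat4+/+ kidneys, and 7.20 to 7.82 in Fat4-/- ones.

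In the developing kidney the ureteric bud branches into the metanephric mesenchyme. Gdnf, secreted by mesenchyme and above all by the nephron progenitors of the cap, binds the anchored co-receptor Gfra1, and the pair engages the receptor kinase Ret on the bud tip. Ret acts through the Erk and phosphoinositide 3-kinase cascades and raises Etv4 and Etv5 in the tip, while Sprouty proteins damp the signal. Loss of Gdnf, Gfra1 or Ret leaves kidneys absent or small, and excess signal adds buds. Neurturin, the product of Nrtn, prefers Gfra2 and also signals through Ret. Fat4 acts in the stroma, the connective tissue around the progenitors, and its protein has also been reported to bind Ret.

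The 8 genes lie on 8 chromosomes, none of them chromosome 3, where Fat4 is. In GENCODE M21 on GRCm38, a later build than the mm9 of the processing notes, Gdnf (ENSMUSG00000022144) spans chromosome 15, 7810846 to 7837575, on the plus strand. Ret (ENSMUSG00000030110) spans chromosome 6, 118151745 to 118197718, and Gfra1 (ENSMUSG00000025089) chromosome 19, 58235604 to 58455909, both on the minus strand. Gfra2 lies on chromosome 14 (70890120 to 70979838) and Nrtn on chromosome 17 (56751325 to 56757530). Etv4 lies on chromosome 11 (101769742 to 101785371), Etv5 on chromosome 16 (22381309 to 22439719) and Ros1 on chromosome 10 (52045721 to 52195244). An antisense gene, Gm16277, shares exon sequence with Gfra1, and the sources used here do not say whether strand was used in counting, so reads of the pair may be mixed. No other gene overlaps an exon of the 8.

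The first listed start regions of the ligand gene Gdnf and the tip target Etv5 are shown because they are unlike in build. Both genes were well expressed. RefSeq tables of the GRCm38.p6 build held 7 start windows for 5 of the 8 genes. The 250 bases before the first listed start are printed 5′ to 3′, with capitals for the letters TATAAA (the TATA box core) and GGGCGG (the GC box core), both searched on both strands; the letters of these motifs do not overlap here.
Gdnf, chr15:7809798-7810047, plus strand: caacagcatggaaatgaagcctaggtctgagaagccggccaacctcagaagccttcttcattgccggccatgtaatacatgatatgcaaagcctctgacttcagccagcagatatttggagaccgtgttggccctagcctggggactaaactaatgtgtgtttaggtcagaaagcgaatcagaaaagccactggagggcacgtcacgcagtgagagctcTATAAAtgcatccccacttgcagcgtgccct
Etv5, chr16:22439571-22439820, minus strand: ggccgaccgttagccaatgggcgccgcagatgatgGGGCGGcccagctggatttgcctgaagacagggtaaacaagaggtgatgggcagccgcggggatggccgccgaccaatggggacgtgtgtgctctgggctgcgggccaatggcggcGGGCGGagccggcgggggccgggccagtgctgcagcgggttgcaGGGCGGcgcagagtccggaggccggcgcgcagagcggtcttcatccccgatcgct
The Gdnf window holds 1 TATAAA, 31 bases before the start, no GGGCGG, and 50.8% G and C. The Etv5 window holds 3 GGGCGG, at 215, 99 and 55 bases before the start, no TATAAA, and 71.2% G and C. Of all 32851 windows of this length, 12.4% hold TATAAA and 32.7% hold GGGCGG, and the median G and C content is 52.4%. Each of these genes has a further listed window that holds neither motif (46.8% G and C for Gdnf, 62% for Etv5). The contrast in motifs therefore covers the first listed windows alone. These matches describe the letters only.

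In wildtype kidneys Gfra1, Etv4 and Etv5 were the most abundant of the 8. Their means were 49.9 ± 3.25, 45.9 ± 4.19 and 44.2 ± 5.82 cRPKM (SD, n = 3), and the wildtype ranges of neighbours in this order overlapped. Gdnf followed at 24.1 ± 1.78 cRPKM and Ret at 14.4 ± 2.51 (SD, n = 3), each below its neighbour in all 6 libraries. Ros1, at 4.66 ± 0.585 cRPKM, and Gfra2, at 4.34 ± 0.428 (SD, n = 3), overlapped each other. Nrtn was lowest at 2.06 ± 0.330 cRPKM (SD, n = 3). The co-receptor Gfra1 was at 3.51 ± 0.359 times the level of the kinase Ret in wildtype and 3.52 ± 0.0664 times in mutant libraries (ratio of cRPKM, SD, n = 3).

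The comparison of mutant with wildtype kidneys asks whether loss of Fat4 goes with a change in the genes of this branching signal. None of the 8 passed the test over all genes (limma, adjusted p under 0.05), where 1.43% of the tested genes did (0.552% higher and 0.877% lower in mutants). Etv4, Gfra1 and Gdnf had an unadjusted p under 0.05, that is 3 of 8, all higher in mutants, where 13% of the tested genes did in either direction and 5.08% with higher mutant values. The log2 fold change, mutant minus wildtype on the log2(cRPKM + 1) scale, was above 0 for 7 of 8 (43.2% of the tested genes) and had a median of 0.16, against -0.01 over all tested genes. Etv4 and Gdnf had all mutant values above all wildtype values, as had 7.23% of the tested genes, and none had all below (11%), so 2 of 8 did not overlap against 18.2%. The embryos are separate animals, and the p-values rest on the spread within 1 litter. In whole kidneys, a change in the share of cells of a type and a change in RNA per cell cannot be told apart, in either direction.

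**Figure D1:**
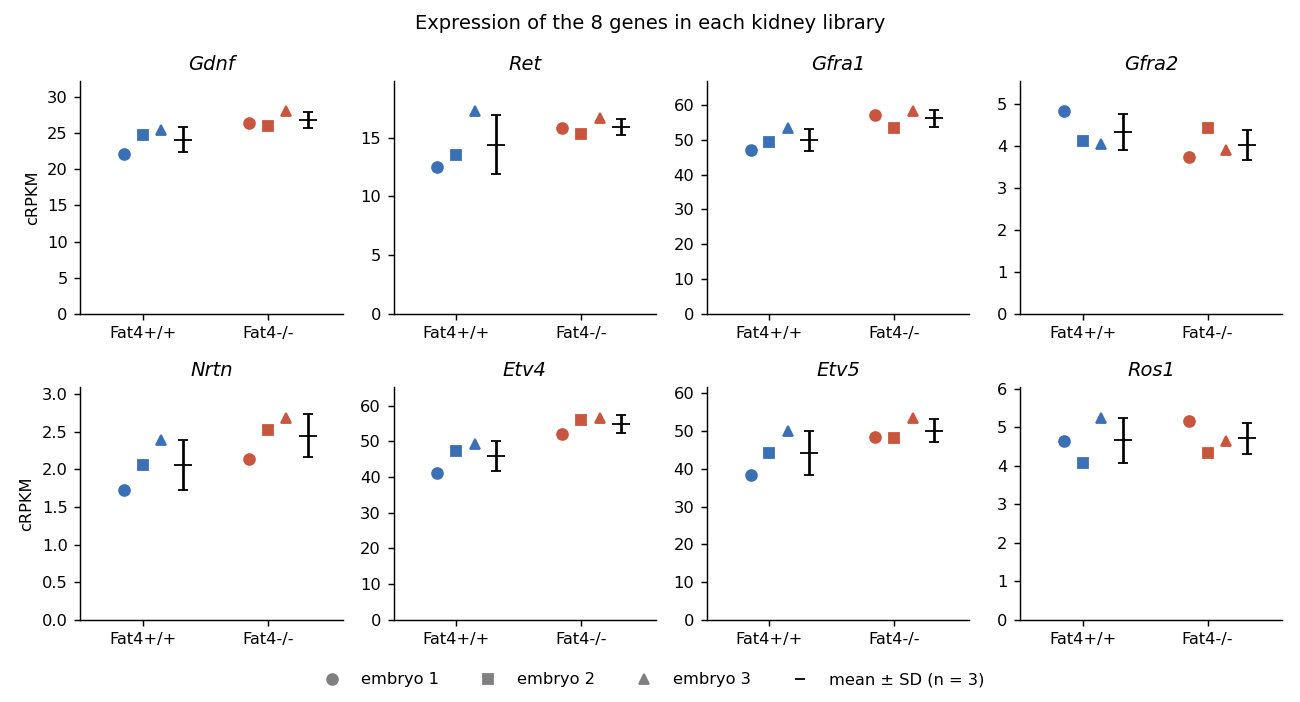
cRPKM (vertical axes, from 0) of the 8 genes in the 3 Fat4+/+ (blue) and 3 Fat4-/- (red) libraries; symbols mark the embryo and black bars the mean ± SD. Etv4 and Gdnf have no mutant value within the wildtype range, and Ret in wildtype embryo 3 (17.25) lies above all 3 mutant libraries.

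Among the ligands, Gdnf, the mesenchymal signal for budding, was at 22.12, 24.73 and 25.52 cRPKM in Fat4+/+ kidneys, against 26.37, 26.02 and 28.04 in Fat4-/- ones. Each mutant library lay above each wildtype one, the nearest pair being 25.52 and 26.02. Its log2 fold change was 0.15 (SE 0.0583, 95% interval 0.01 to 0.28, limma adjusted p = 0.324). Without wildtype embryo 1, the lowest library, it was 0.09 (adjusted p = 0.739). Nrtn, the other ligand, was at 1.73, 2.06 and 2.39 cRPKM in Fat4+/+ kidneys, against 2.14, 2.52 and 2.69 in Fat4-/- ones. Its groups overlapped (log2 fold change 0.18, 95% interval -0.04 to 0.39, limma adjusted p = 0.492), and without wildtype embryo 1 the value was 0.10. Being near the testing minimum, it depended on the scale, with 0.24 at a pseudocount of 0.1.

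Of the receptors, Gfra1, the co-receptor that hands Gdnf to Ret, was at 46.98, 49.45 and 53.42 cRPKM in Fat4+/+ kidneys, against 57.01, 53.34 and 58.17 in Fat4-/- ones. Mutant embryo 2 lay just inside the wildtype range, and the other 2 mutants lay above it. The log2 fold change was 0.17 (SE 0.0561, 95% interval 0.04 to 0.30, limma adjusted p = 0.247). Gfra2, the neurturin co-receptor, was the single member with a lower mutant mean, at 4.83, 4.12 and 4.06 cRPKM in Fat4+/+ kidneys, against 3.75, 4.43 and 3.90 in Fat4-/- ones. Its groups overlapped (log2 fold change -0.09, 95% interval -0.26 to 0.09, limma adjusted p = 0.700), and without wildtype embryo 1, its highest library, the value was -0.02. The ratio of Gfra1 to Gfra2 was 9.73 to 13.2 in Fat4+/+ kidneys, and 12.0 to 15.2 in Fat4-/- ones, and the groups overlapped.

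Ret, the kinase of the complex, was at 12.49, 13.49 and 17.25 cRPKM in Fat4+/+ kidneys, against 15.83, 15.32 and 16.66 in Fat4-/- ones. The mutant libraries were close together and lay above wildtype embryos 1 and 2 and below embryo 3, so the groups overlapped. The log2 fold change was 0.15 (SE 0.101, 95% interval -0.08 to 0.38, limma adjusted p = 0.609), with the widest interval of the receptors. The value turned on single wildtype libraries: it was 0.28 without wildtype embryo 3 (adjusted p = 0.0689, unadjusted p = 0.00106) and 0.06 without wildtype embryo 1 (adjusted p = 0.966).

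Wildtype embryo 3 also stood apart in some nerve genes and in an epithelial gene of the ureteric epithelium list, against which Ret is set below. Ret is itself a gene of sympathetic and enteric nerve precursors. The list of 12 nerve and neural crest genes summed to 25.6 cRPKM in that library, against 15.8 and 19.1 in its Fat4+/+ littermates and 16.5 to 19.9 among Fat4-/- kidneys. Of its 12 genes, 4 were high enough to test and none passed, while 8 were under a mean of 1 cRPKM. Hand2 and Th, given next, are among those 8 and were not tested. Single genes named here after their values were seen show where that library departs. Hand2, a transcription factor gene of sympathetic neurons, was at 2.09 cRPKM there, 0.37 and 0.04 in its Fat4+/+ littermates and 0.04 to 0.08 among Fat4-/- kidneys. Th, the first enzyme of catecholamine synthesis, was at 1.41 there, 0.37 and 0.04 in the other Fat4+/+ kidneys, and 0.04 to 0.08 in Fat4-/- ones. The epithelial cadherin gene Cdh1 was also highest there, at 35.17 cRPKM against 25.66 and 26.87 in its Fat4+/+ littermates and 20.81 to 23.14 among Fat4-/- kidneys. The part of nerve cells or of epithelium in the Ret value was not tested.

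**Figure D2:**
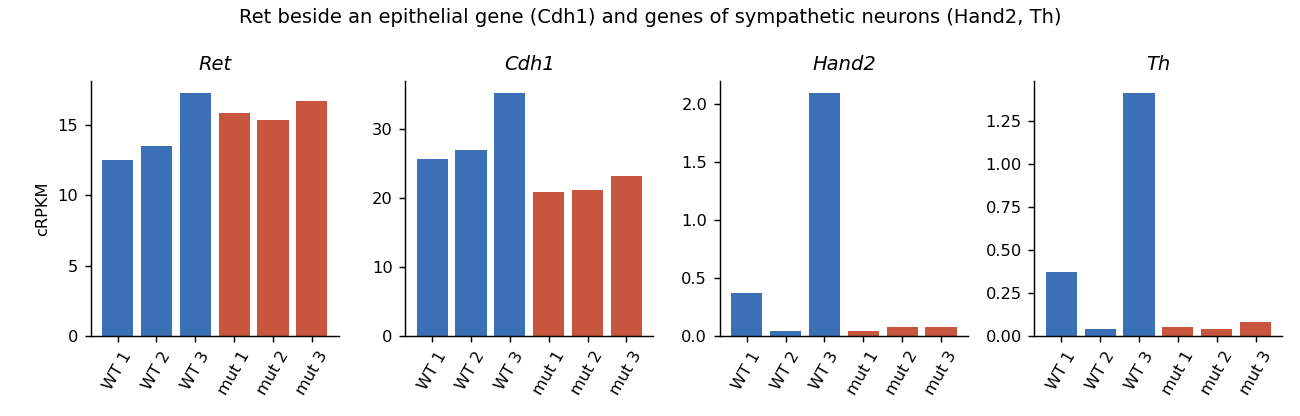
cRPKM (vertical axes, from 0) of Ret, the epithelial cadherin gene Cdh1 and the sympathetic neuron genes Hand2 and Th in each library (WT, Fat4+/+, blue; mut, Fat4-/-, red; 1 bar a library). Wildtype embryo 3 has the highest bar in all 4 panels. Hand2 and Th were under the mean of 1 cRPKM needed for testing and were picked after their values were seen.

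For the Ets factors, which Ret signalling raises in the bud tip and Fgf signalling raises in mesenchyme, Etv4 had the smallest p of the 8 genes. It was at 41.17, 47.38 and 49.15 cRPKM in Fat4+/+ kidneys, against 52.10, 55.95 and 56.69 in Fat4-/- ones. All 3 mutants lay above all 3 wildtype libraries, and the mutant mean of 54.9 ± 2.46 cRPKM was 1.20 times the wildtype mean of 45.9 ± 4.19 (SD, n = 3). The log2 fold change was 0.26 (SE 0.0678, 95% interval 0.10 to 0.41, limma adjusted p = 0.129), and it ranked 476 among the tested genes by p. Etv5, its near relative with overlapping roles in branching, was at 38.40, 44.12 and 50.04 cRPKM in Fat4+/+ kidneys, against 48.40, 48.20 and 53.56 in Fat4-/- ones. Here wildtype embryo 3 lay above 2 of the mutants (log2 fold change 0.18, 95% interval -0.02 to 0.39, limma adjusted p = 0.442). Without wildtype embryo 3 the Etv5 value was 0.27 and without wildtype embryo 1 it was 0.09, neither past the threshold (adjusted p = 0.136 and 0.872). The ratio of Etv4 to Etv5 was 0.982 to 1.07 in Fat4+/+ kidneys, and 1.06 to 1.16 in Fat4-/- ones, with overlapping groups.

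Ros1, an epithelial receptor kinase related to the sevenless kinase of flies, was at 4.65, 4.08 and 5.25 cRPKM in Fat4+/+ kidneys, against 5.15, 4.33 and 4.64 in Fat4-/- ones. The groups lay over each other (log2 fold change 0.01, 95% interval -0.18 to 0.21, limma adjusted p = 0.968), and the sign turned without wildtype embryo 2 (-0.06) or mutant embryo 1 (-0.04). Its ligand and partner list held 5 measured genes, of which 1 rose and 4 did not pass. That gene was Nell1, a secreted relative of the Ros1 ligand Nell2, with means of 5.66 ± 0.238 cRPKM in Fat4+/+ and 7.93 ± 0.351 in Fat4-/- kidneys (SD, n = 3; log2 fold change 0.42, limma adjusted p = 0.0117). It did not pass without mutant embryo 2 (adjusted p = 0.0594) or 3 (0.0571), or with no filter on low values (0.0557). Nell2 itself had a wildtype mean of 5.05 ± 0.316 cRPKM and a mutant mean of 5.12 ± 0.366 (SD, n = 3, limma adjusted p = 0.946).

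Upstream of Gdnf, 2 of 18 tested activators rose, none fell and 16 did not pass, with a median log2 fold change of 0.04. Those that rose were Eya1, a cofactor needed for Gdnf in the mesenchyme, and Osr1, a zinc finger factor of the kidney field. Eya1 was at 33.53, 36.04 and 33.67 cRPKM in Fat4+/+ kidneys, against 46.65, 46.98 and 47.96 in Fat4-/- ones (log2 fold change 0.45, limma adjusted p = 0.00418). The log2 fold change of Osr1 was 0.41 (limma adjusted p = 0.0237). The value for Gdnf was 0.15 on the same scale. Osr1 passed without wildtype embryo 2 or 3, and not without any of the other 4 libraries (adjusted p from 0.0631 to 0.0983), whereas Eya1 passed with each library left out in turn. Both lost their calls with a Y-linked covariate (adjusted p = 0.179 for Eya1 and 0.505 for Osr1), at log2 fold changes of 0.43 and 0.34. Of the 18 activators, 6 had an unadjusted limma p under 0.05 with higher mutant values, Eya1 and Osr1 among them, and 2 with lower ones. Over all tested genes 5.08% were higher at that p, and 13% met it in either direction. The Fraser complex genes Frem1 and Fras1, whose matrix proteins hold the bud and mesenchyme together, had log2 fold changes of -0.23 and -0.21 (limma adjusted p = 0.176 and 0.308).

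Of 12 tested genes that restrict Gdnf or branching, 1 rose, none fell and 11 did not pass (median log2 fold change 0.06). An unadjusted limma p under 0.05 was met by 4 of the 12 with higher mutant values and by none with lower ones. Over all tested genes 5.08% were higher at that p, and 13% met it in either direction. Spry2, a Sprouty feedback inhibitor of receptor kinases, was at 18.56, 18.83 and 17.98 cRPKM in Fat4+/+ kidneys, against 21.75, 24.50 and 22.57 in Fat4-/- ones (log2 fold change 0.30, limma adjusted p = 0.0324). It lost its call with any 1 library left out (adjusted p from 0.0656 to 0.101, log2 fold change 0.25 to 0.33). Spry1, the Sprouty gene whose loss gives extra buds, was at 32.2 ± 4.38 and 32.4 ± 1.58 cRPKM (SD, n = 3, limma adjusted p = 0.959). Robo2, the receptor through which Slit2 limits the Gdnf domain, was at 0.21 (log2 fold change, limma adjusted p = 0.128), and Slit2 at -0.10 (0.568).

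Downstream, none of 9 tested genes known to depend on Ret in the tip passed (limma). Over all tested genes 5.08% had an unadjusted p under 0.05 with higher mutant values, and 13% in either direction. Of the 9 genes 3 met that p, all with higher mutant values. Among them were the Erk phosphatase Dusp6, at a log2 fold change of 0.22 (adjusted p = 0.0917), and the chemokine receptor Cxcr4 at 0.27 (0.0949). Wnt11, the tip signal that keeps up Gdnf in the mesenchyme, was at 13.46, 13.70 and 15.24 cRPKM in Fat4+/+ kidneys, against 13.97, 13.88 and 14.73 in Fat4-/- ones (log2 fold change 0.01, limma adjusted p = 0.975). The median of the 9 was 0.02, against 0.16 for the 8 axis genes. Dusp6 and the Sprouty genes also answer to Fgf signalling. Of 10 tested genes of other branching kinases none passed (limma), 3 had a log2 fold change above 0, and the median was -0.06. The lowest p were those of the ligand gene Fgf10 at 0.27 (adjusted p = 0.0825), the receptor gene Fgfr1 at 0.19 (0.151) and the receptor gene Egfr at -0.22 (0.285).

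**Figure D3:**
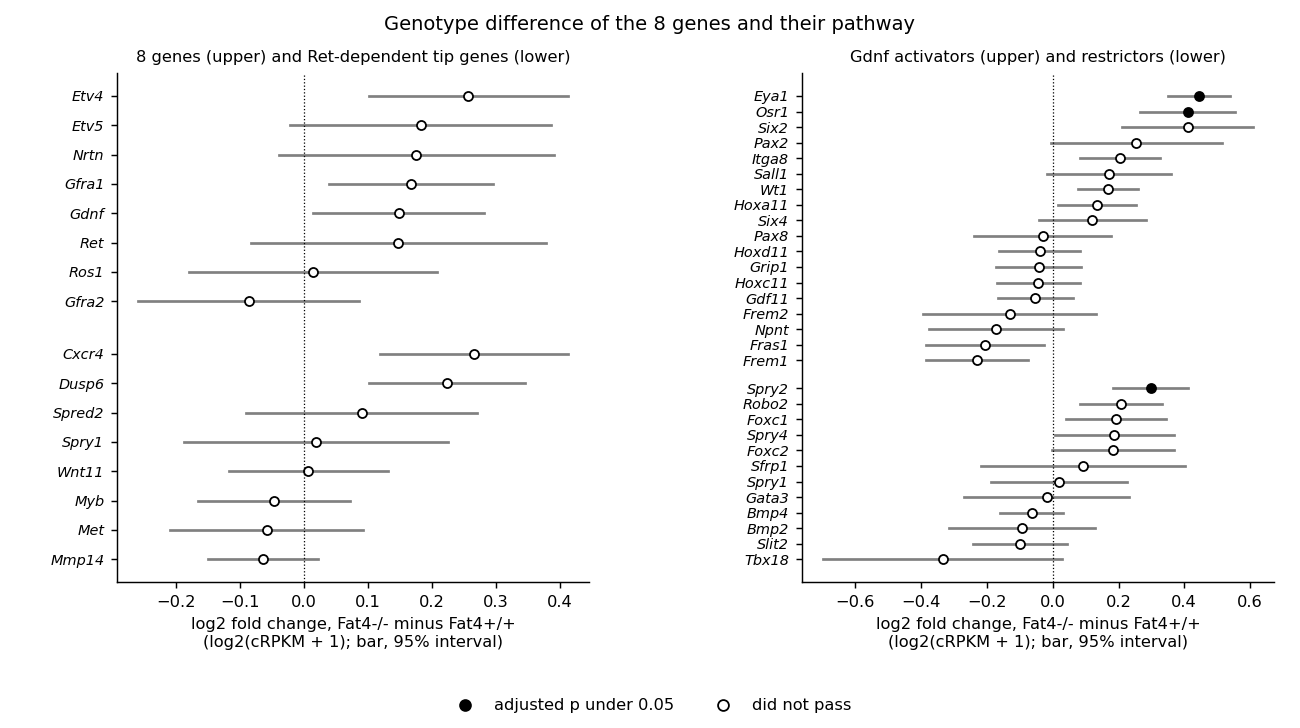
Log2 fold change (horizontal axis, Fat4-/- minus Fat4+/+) with its 95% interval for the 8 genes of the axis and 8 of the 9 Ret-dependent tip genes (left) and for Gdnf activators and restrictors (right); filled points passed at an adjusted p under 0.05. Filled points are Eya1, Osr1 and Spry2, and none of the 8 axis genes is filled.

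None of 29 tested adaptor, Ras, Erk and phosphoinositide 3-kinase genes passed (limma), and the median log2 fold change was 0.00. An unadjusted p under 0.05 was met by 2 of the 29, against 13% of all tested genes in either direction. The lowest p was that of Pik3r1, a regulatory subunit, at a log2 fold change of -0.14 (adjusted p = 0.195). Among 9 Gdnf co-receptors and heparan sulfate genes none passed, and none had an unadjusted p under 0.05. Of 13 genes that regulate Ret in the bud none passed. At an unadjusted p under 0.05, which 13% of all tested genes met in either direction, were 4 of the 13, all lower in mutants. The first of these was the retinoic acid receptor gene Rarb, at 24.03, 22.93 and 23.41 cRPKM in Fat4+/+ kidneys, against 20.59, 20.51 and 20.00 in Fat4-/- ones (limma adjusted p = 0.0529). The homeobox gene Emx2 had a log2 fold change of -0.26 (adjusted p = 0.262).

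The other ligands and receptors of the family were scarce. Artn, Pspn, Gfral and Gdf15 were under a mean of 1 cRPKM, and the 2 tested genes, Gfra3 and Gfra4, did not pass (limma adjusted p = 0.263 and 0.739). Gfra3, an artemin co-receptor of sympathetic and sensory neurons, was at 1.39, 1.40 and 2.12 cRPKM in Fat4+/+ kidneys, against 0.89, 1.28 and 1.05 in Fat4-/- ones, so it too was highest in wildtype embryo 3. Among 10 further tested Ets factors none passed. An unadjusted p under 0.05, which 13% of all tested genes met in either direction, was that of 2. These were Elf3 and Gabpa, both lower in mutants (log2 fold change -0.24 and -0.10). Etv1, the third gene of the family of Etv4 and Etv5, had a log2 fold change of 0.09 (limma adjusted p = 0.564).

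The genes were also set against marker lists, the 6 genes other than Gdnf and Gfra2 against general ureteric epithelium first. The mean log2 fold change was -0.22 over that list and 0.23 over the cap mesenchyme list, so the differences depend on the list. None of the 6 was set against the cap mesenchyme list, although Fgf signalling raises Etv4 and Etv5 in mesenchyme. Of 14 ureteric epithelium markers 1 fell (Mal, a membrane traffic gene, limma adjusted p = 0.0329), none rose, and 9 had an unadjusted p under 0.05, all lower. Over all tested genes 13% met that p in either direction. Mal no longer passed when wildtype embryo 1 or a single mutant library was left out (adjusted p from 0.0723 to 0.119). The log2 level of Ret minus the mean log2 level of these 14 was -0.51, -0.45 and -0.35 in Fat4+/+ kidneys, against -0.08, -0.11 and -0.03 in Fat4-/- ones. The groups did not overlap against this list, although they did for Ret alone and against the tip list given next. The difference was 0.37 (exact permutation p = 0.1 over embryos, 2-sided, the smallest that 3 against 3 can give; 0.133 adjusted over the 8 genes). Gfra1 (0.39), Nrtn (0.39), Etv4 (0.47), Etv5 (0.40) and Ros1 (0.23) likewise had all mutant values above all wildtype values, each at the same p. So had 54.9% of all tested genes (55.7% without overlap in either direction), and their median difference on this scale was 0.21. Many of the 14 are also expressed in nephron epithelium, and of 9 early nephron markers 3 fell and none rose, with 0 or 1 passing when any 1 library was left out. The part of that epithelium in these values was not tested. Ros1 overlapped when the median of the 14 was used as the reference (difference 0.16, exact permutation p = 0.4).

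Ret, Etv4 and Etv5 mark the bud tip, and against tip markers the differences were smaller. Of 9 tested ureteric tip markers none passed (limma), and the median log2 fold change was -0.03. At an unadjusted p under 0.05, which 13% of all tested genes met, 2 of these markers were higher and 3 lower. Ret minus their mean log2 level was 0.22, 0.25 and 0.49 in Fat4+/+ kidneys, against 0.50, 0.43 and 0.51 in Fat4-/- ones. Wildtype embryo 3 lay above mutant embryo 2, so the groups overlapped (difference 0.16, exact permutation p = 0.2 over embryos, 2-sided). Ros1 also overlapped (0.03, exact permutation p = 0.9). Gfra1 (0.18), Nrtn (0.19), Etv4 (0.27) and Etv5 (0.20) had all mutant values above all wildtype values, each at an exact permutation p of 0.1, as had 9.01% of the tested genes (14.3% without overlap in either direction). The median of all tested genes on this scale was 0.00. Of the 9 markers, 2 are also in the Ret-dependent list.

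Of 10 markers of cap mesenchyme, the cells that make most Gdnf, 3 rose (Eya1, Osr1 and Meox2, the first pair also being in the activator list), none fell and 7 did not pass. Without wildtype embryo 1, or without any 1 mutant library, the count was 1, Eya1. Against them Gdnf was at -0.40, -0.31 and -0.11 in Fat4+/+ kidneys, against -0.32, -0.41 and -0.33 in Fat4-/- ones. The groups overlapped (difference -0.08, exact permutation p = 0.4 over embryos, 2-sided), and the median of all tested genes was -0.24. On that scale 0.349% of the tested genes had all mutant values above all wildtype values, and 79.8% did not overlap in either direction. Gfra2 against 10 stromal markers differed by 0.17 (exact permutation p = 0.2), with overlapping groups, where 24.7% of the tested genes were higher without overlap and 24.8% did not overlap in either direction. Without wildtype embryo 1, which stood highest in the stromal list, the Gfra2 difference was 0.08. Of those markers Pdgfra fell, none rose and 9 did not pass.

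**Figure D4:**
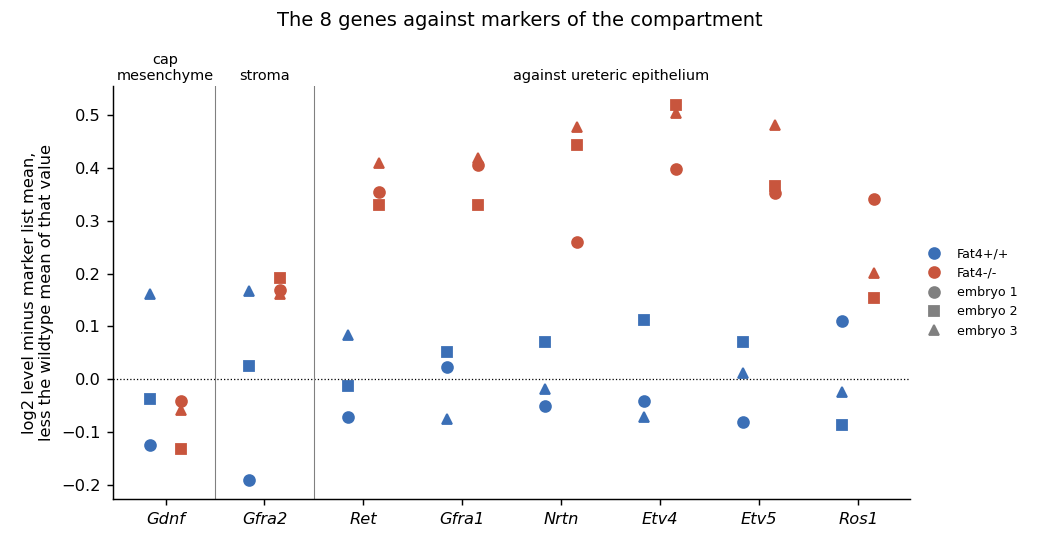
Vertical axis, log2 level of each gene minus the mean log2 level of a marker list (cap mesenchyme for Gdnf, stroma for Gfra2, ureteric epithelium for the other 6), with the wildtype mean of that value set to 0; points are libraries. The 6 genes set against ureteric epithelium have all mutant values above all wildtype values, as have 54.9% of all tested genes on that scale. Gdnf and Gfra2 overlap. Ros1 overlaps with the median of the list as reference, and Ret and Ros1 overlap against the tip list (neither drawn).

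Sex was uneven between the genotypes. A set of 4 genes of the Y chromosome (Ddx3y, Eif2s3y, Kdm5d, Uty) averaged 16.3 to 18.2 cRPKM across Fat4+/+ kidneys and 17.4 in mutant embryo 1, but 0.02 and 0.0375 in mutant embryos 2 and 3. Mutant embryo 1 lay above all 3 wildtype libraries for Gdnf, Gfra1 and Etv4 (17.7% of the tested genes did), within their range for Ret, Nrtn, Etv5 and Ros1, and below all 3 for Gfra2. Among libraries with Y-linked expression alone the log2 fold changes were 0.13 for Gdnf, 0.14 for Ret, 0.19 for Gfra1, 0.18 for Etv4 and 0.14 for Etv5, and none passed. In the same libraries Nrtn was at 0.04, Gfra2 at -0.16 and Ros1 at 0.12, against 0.18, -0.09 and 0.01 over all 6. With 1 mutant library there, that library is assumed to vary like the wildtype ones.

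The genes whose profile over the 6 libraries was most like that of a member, by root mean square distance between centred and scaled log2 values, were not members. For Gdnf they were Ddx19a (0.0273), Arf3 (0.0701) and Slc1a5 (0.0957), against a median of 1.40 over the other tested genes. For Ret they were Pigm (0.0741), Homez (0.0891) and Nmnat1 (0.103). Gfra1 lay nearest to Zkscan17 (0.129), Myo10 (0.144) and Fam160a1 (0.151), and Etv4 to Tmc6 (0.0749), Foxp4 (0.0875) and Msi1 (0.0899). Among the members, Etv5 was the nearest to both Gdnf (0.238) and Ret (0.315).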

How the data were processed

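Kidney RNA of 6 mouse embryos was measured, 1 library each. The authors deposited 1 table of the series with RPKM values in a corrected form (cRPKM); reads were trimmed per the file headers, and Bowtie and mm9 are named per the submitters' processing notes. Their versions, the correction and read totals are not given in the sources used here. Depth is therefore unknown. Columns were matched to samples by the header text in the labels.

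After a filter that kept 12315 genes (mean over the libraries not under 1 cRPKM), limma 3.58.1 under R 4.3.3 was fitted to log2(cRPKM + 1), with genotype as its single term and a mean-variance trend. P-values were 2-sided and adjusted by Benjamini-Hochberg, with calls at 0.05; the scale understates changes of low genes. The script was tested on simulated data. Exact permutation tests used SciPy 1.17.1. Positions came from GENCODE M21 and start windows from RefSeq. Gene lists were matched by name, and 4 genes with older symbols by Ensembl identifier; Nicol1 was not matched. Marker lists for endothelium, gonad, adrenal cortex, macrophages and erythroid cells were also checked, and none of their tested members passed.

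Named genes were the 8 members, list genes that passed and otherwise up to 3 of smallest p, and the nearest profiles; the rest were chosen after their values were seen. Members and lists were chosen with earlier results of these data known. Equal embryo numbers were not taken as pairs. Some list genes are not reported here by name.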

Additional observations from a re-analysis of the deposited data

How the results depend on the processing

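Over pseudocounts of 0.1 and 0.5, no filter, a filter at 5 cRPKM, quantile normalisation, median centring, array weights, a Y-linked covariate, Y-linked libraries alone, an embryo-number block and each library left out, none of the 8 genes passed, except that Etv4 did with embryo number as a replicate block (log2 fold change 0.26, adjusted p = 0.0348). The labels do not say that equal numbers belong together. Deviations of same-numbered embryos correlated at 0.0985, 0.205 and 0.277. Wildtype embryos 2 and 3 correlated best with the mutant of the same number, and wildtype embryo 1 with mutant embryo 2 (0.227). These values do not settle whether equal numbers are pairs. Ros1 changed sign with 1 library left out (log2 fold change from -0.06 to 0.09; without wildtype embryo 2 it was -0.0609 and without wildtype embryo 3 0.0886). Gfra2, Nrtn and Ros1 were under the 5 cRPKM filter. Adjusted p of Etv4 ran from 0.0348 to 1.00, and of Ret from 0.0689 to 1.00.

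Over all genes 68 were higher and 108 lower. These counts were 10 and 22 without a filter, 61 lower at the 5 cRPKM filter, 109 and 164 with the replicate block, 1 and 1 with the covariate, and 1 and 3 in Y-linked libraries alone. With 1 library left out they ran from 7 to 53 higher and from 17 to 87 lower. The covariate fit and the Y-linked libraries alone both rest, in effect, on mutant embryo 1 against the wildtype libraries, so they are not separate checks. Why the counts moved was not tested. Gdnf against cap mesenchyme ran from -0.14 to 0.00384 with 1 library left out, turning without wildtype embryo 3. The values against ureteric epithelium kept their sign under a pseudocount of 0.1, a median reference, each library left out and the tip list, a reference added after seeing the data; the median reference and the tip list ended the separation of Ros1, and the tip list that of Ret. List calls under these settings were added after seeing the data. Without wildtype embryo 3, Eya1, Osr1, Meox2, Nell1, Mal and Pdgfra still passed and Spry2 did not (adjusted p = 0.0696). With no filter Eya1 and Pdgfra passed, and Osr1 (adjusted p = 0.0801), Meox2 (0.0801), Nell1 (0.0557), Spry2 (0.0833) and Mal (0.103) did not. With the Y-linked covariate none of these 7 passed.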
